A study of Mus musculus with 2 samples.

Results

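The genes described here are 187 annotated processed pseudogenes that drew long reads in mouse adrenal gland. They were chosen by their summed reads: each has the annotated gene type processed pseudogene (163 genes) or transcribed processed pseudogene (24 genes) and 10 or more reads over both libraries. Another 2 genes that meet these terms, Gm15459 and Oaz1-ps, are not among the 187. GENCODE M21 annotates 10237 processed pseudogenes on mm10, of which 643 had at least 1 read and 9594 had none. Long-read RNA sequencing was run on adrenal glands from female B6CASTF1/J mice, the F1 cross of C57BL/6J and CAST/EiJ, aged 18-20 months, with no treatment named in the labels. There was 1 group of 2 libraries, replicate 1 and replicate 2, each made from 1 µg of total RNA. The labels list separate biosamples but the same donor entry, so p-values below compare only these 2 libraries, whose differences may be technical. Because each sample is bulk tissue, fewer cells of a type and less RNA per cell cannot be told apart.

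Replicate 1 held 1412947 reads on annotated genes and replicate 2 held 933963. All 5 markers of adrenal cortex and all 4 of medulla had reads in both libraries, summing to 57550 and 54930 CPM (reads per 1000000 gene reads) for cortex and 6908 and 5331 for medulla. The 3 fat markers summed to 2419 CPM in replicate 1 and 1067 in replicate 2. Both skeletal muscle markers had reads in replicate 1 (405.5 CPM in sum) and were at 0 in replicate 2, where a count of 0 allows 3.21 CPM. The liver marker Alb and the kidney marker Slc34a1 had between 2 and 4 reads a library, and the kidney marker Umod had none.

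A processed pseudogene arises when the mRNA of a gene is reverse transcribed and the DNA copy is inserted elsewhere in the genome. The copy therefore carries the spliced sequence of its parent gene without introns, often with a trace of the poly(A) tail, and it lacks the parent's promoter. Most such copies gather mutations and are not transcribed, while some are transcribed from nearby promoters and a few still encode protein. Parents that are strongly expressed in the germ line, such as ribosomal protein genes and Gapdh, have many copies. A young copy differs from the mature mRNA of its parent at few bases, so a read that spans the whole mRNA matches both places in the genome closely.

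The sequences below show how alike parent and copy were in the annotated transcripts. Each is a window of 60 bases of coding sequence, 30 on either side of an exon junction of the parent, read 5′ to 3′ from the GENCODE M21 transcripts on mm10. Capitals mark bases at which the copy differed from its parent. The Gapdh set is shown because 9 copies of this glycolytic enzyme gene drew reads. The Gapdh window runs from end to end over chr6:125162679-125162872 on the minus strand, a stretch that includes an intron. The copies hold it without that intron: Gm12671 at chr4:91852121-91852180 (minus), Gm12033 at chr11:20335465-20335524 (minus), Gm5559 at chr5:95862203-95862262 (plus), Gm7336 at chr7:51747186-51747245 (plus), Gm13394 at chr2:28934061-28934120 (minus), Gm13292 at chr2:11409483-11409542 (minus), Gm10359 at chr5:105863154-105863213 (minus), Gapdh-ps15 at chrY:38620272-38620331 (plus) and Gm5069 at chr1:180327624-180327683 (minus).
Gapdh: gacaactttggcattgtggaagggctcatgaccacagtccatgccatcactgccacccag
Gm12671: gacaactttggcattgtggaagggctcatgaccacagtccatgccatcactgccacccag
Gm12033: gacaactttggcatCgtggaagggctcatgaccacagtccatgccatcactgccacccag
Gm5559: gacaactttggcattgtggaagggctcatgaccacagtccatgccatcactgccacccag
Gm7336: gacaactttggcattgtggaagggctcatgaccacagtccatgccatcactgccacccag
Gm13394: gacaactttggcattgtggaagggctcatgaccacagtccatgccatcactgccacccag
Gm13292: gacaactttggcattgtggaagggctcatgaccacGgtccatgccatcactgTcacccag
Gm10359: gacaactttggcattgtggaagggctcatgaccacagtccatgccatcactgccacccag
Gapdh-ps15: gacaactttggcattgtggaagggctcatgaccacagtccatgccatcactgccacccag
Gm5069: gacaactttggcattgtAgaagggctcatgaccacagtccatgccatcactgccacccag
In this window, 6 of the 9 copies matched Gapdh at every base, Gm12033 and Gm5069 differed at 1 base and Gm13292 at 2.

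The next windows show the member with the most reads, then 4 much-read members whose copy differed from the parent near a junction, and last a diverged member. Gm10123 (chr9:96895697-96895756, plus) is a copy of Ppia (chr11:6415950-6418130, plus), which encodes the prolyl isomerase cyclophilin A. Gm8172 (chrX:69605867-69605926, minus) is a copy of Rps6 (chr4:86855984-86856175, minus). Rpl37rt (chr5:115103268-115103327, minus) is a copy of Rpl37 (chr15:5117674-5118596, plus). Rps2-ps13 (chrX:52898735-52898794, plus) is a copy of Rps2 (chr17:24720423-24720563, plus). Gm10243 (chr6:48523652-48523711, plus) is a copy of Rpl35a (chr16:33057513-33058708, plus). Rps4l (chr6:148354761-148354820, plus) is a copy of Rps4x (chrX:102187973-102188323, minus).
Ppia: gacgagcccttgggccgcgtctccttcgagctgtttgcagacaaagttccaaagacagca
Gm10123: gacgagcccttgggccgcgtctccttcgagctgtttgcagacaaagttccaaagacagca
Rps6: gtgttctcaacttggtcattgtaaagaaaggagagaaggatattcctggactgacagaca
Gm8172: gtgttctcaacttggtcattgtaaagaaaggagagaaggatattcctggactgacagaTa
Rpl37: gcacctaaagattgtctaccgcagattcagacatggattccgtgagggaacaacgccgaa
Rpl37rt: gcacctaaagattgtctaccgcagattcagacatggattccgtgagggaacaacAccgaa
Rps2: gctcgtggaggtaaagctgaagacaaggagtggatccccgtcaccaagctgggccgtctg
Rps2-ps13: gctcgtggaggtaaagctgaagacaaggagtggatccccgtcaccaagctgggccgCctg
Rpl35a: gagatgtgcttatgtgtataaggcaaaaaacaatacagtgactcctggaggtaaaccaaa
Gm10243: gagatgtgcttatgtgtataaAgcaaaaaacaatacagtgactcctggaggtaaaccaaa
Rps4x: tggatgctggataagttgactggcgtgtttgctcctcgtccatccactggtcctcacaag
Rps4l: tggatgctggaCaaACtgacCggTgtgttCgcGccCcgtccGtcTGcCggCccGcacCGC
Gm10123 had no differing base in its window, the next 4 copies had 1 each and Rps4l had 17.

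The 187 members held 11125 reads in replicate 1 and 8952 in replicate 2. This was 0.787% of the gene reads of replicate 1 (95% exact Clopper-Pearson interval 0.773 to 0.802%) and 0.959% of those of replicate 2 (0.939 to 0.979%), a mean of 0.873% ± 0.121 (SD, n = 2). These intervals cover counting error only. The median member had 39 reads over both libraries, 56 members had fewer than 20, and 48 had 100 or more. The 10 members with the most reads held 36.3% of all member reads. All but 1 member (186 of 187) had reads in both libraries.

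Gm10123 had the most reads, 1018 in replicate 1 and 762 in replicate 2 (720.5 and 815.9 CPM). It is a single exon of 490 bases at chr9:96895658-96896147 that matched its parent Ppia at every aligned base, and Ppia itself had 1173 and 818 reads. Gm12671, a Gapdh copy at chr4:91851668-91852669, had 545 and 273 reads. Gm10698 at chr9:33728247-33728850 had 456 and 299, and it matched at every base its parent Tmed2, a cargo receptor of ER to Golgi transport, which had 523 and 336. In both of the non-Gapdh cases copy and parent stood at similar counts in each library.

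Ribosomal protein copies followed. Rpl3-ps1 had 446 and 284 reads against 896 and 605 for Rpl3. Gm14303 had 306 and 309 against 275 and 278 for Rps29, and Gm8172 had 329 and 283 against 291 and 230 for Rps6. The last 2 copies held more reads than their parents in both libraries. Rpl37rt had 252 and 248 reads and Rpl37 had 247 and 248. Rps2-ps13 had 271 and 229 reads against 238 and 153 for Rps2, Gm10243 had 217 and 252 against 91 and 83 for Rpl35a, and Rps19-ps6 had 221 and 236 against 253 and 209 for Rps19. Other ribosomal copies among the 25 most-read members were Rpl21-ps15 and Gm13370 (Rpl21), Gm7536 (Rpl27a), Rps13-ps1, Gm15500 (Rpl5), Rpl19-ps11 and Gm12191 (Rpl30), with 207 to 347 reads over both libraries.

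Among the 25 most-read members, 4 more had parents of other kinds. Gm12338 copies Cox7c, a subunit of cytochrome c oxidase, and had 196 and 190 reads against 484 and 372 for Cox7c. Mpc1-ps copies Mpc1, a subunit of the mitochondrial pyruvate carrier, and had 200 and 124 against 380 and 279. Gm12138 copies Akr1b3, which encodes an aldose reductase, and had 203 and 116 against 243 and 157. Gm9843 copies Fau, which encodes a ubiquitin-like protein fused to ribosomal protein S30, and had 191 and 193 against 283 and 248.

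At the lower end, 7 processed pseudogenes had exactly 10 reads and entered the set, and 9 had 9 reads and did not. Gm11223 had 7 reads in replicate 1 and 3 in replicate 2, Gm13195 had 5 and 5, and Gm3226 had 9 and 1. Just outside, Gm10051 had 5 and 4 reads, Gm10182 had 1 and 8, and Gm10247 had 4 and 5. Those inside and outside differed by 1 read. The set would hold 131 genes at a minimum of 20 reads and 260 at a minimum of 5.

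A parent was found for 186 of 187 members as the best match of the pseudogene transcript among transcripts of spliced protein-coding genes elsewhere in the genome. The exception, Magef1, a single-exon gene of the MAGE family, had 2 and 9 reads. For 8 members a second gene scored within 1% of the best match, so their parent is uncertain. There were 141 parents, of which 28 had more than 1 member and together accounted for 73 members. Ribosomal protein genes were the parents of 81 members, which held 9465 reads (47.1% of member reads). Glycolytic genes were parents of 11 members with 2389 reads (11.9%). Genes of the respiratory chain and ATP synthase were parents of 9 members with 908 reads, and cytoskeletal genes of 6 members with 124. Chaperone and folding genes were parents of 3 members with 1887 reads, of which Gm10123 alone held 1780. The remaining members had parents among chromatin proteins (2), translation factors (2), ubiquitin and proteasome genes (2), ferritin (1) and other genes (69).

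Gapdh itself had 14 reads in replicate 1 and 7 in replicate 2. Its 9 copies together had 1379 and 791. The copies thus held 99.0% of the reads on Gapdh and these copies in replicate 1 and 99.1% in replicate 2 (95% exact Clopper-Pearson interval over both libraries 98.5 to 99.4%). Of the reads given to Gapdh, 11 of 14 and 5 of 7 lay on spliced models. Gm12671 had the most, followed by Gm12033 (331 and 182), Gm5559 (246 and 142), Gm7336 (130 and 99) and Gm13394 (96 and 57), in the same order in both libraries. Gm13292 had 7 and 16 reads, Gm10359 12 and 6, Gapdh-ps15 5 and 10, and Gm5069 7 and 6. Gm12671 and Gm10359 were both identical to Gapdh over their whole length, and had 818 and 18 reads over both libraries. Gm12033, Gm5559 and Gm13394 each differed from Gapdh by 1 mismatch.

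Rpl21, Rpl17 and Rpl35a, which encode proteins of the large ribosomal subunit, also had fewer reads than their copies. Rpl21 had 15 reads in each library, while its 5 copies had 389 and 341, or 96.3% and 95.8% of the sum. Rpl21-ps15 (186 and 161 reads, 3 mismatches) and Gm13370 (161 and 139, 2 mismatches) held most of these. The other 3 were Gm10163 (30 and 27), Gm10240 (7 and 9) and Gm13195 (5 and 5), and Gm13195 matched Rpl21 at only 70.7% of the aligned bases. Rpl17 had 9 and 13 reads and its 3 copies 98 and 79, of which Rpl17-ps5 had 80 and 69. Rpl35a had 91 and 83 reads and its 5 copies 298 and 344, or 76.6% and 80.6% of the sum.

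**Figure D1:**
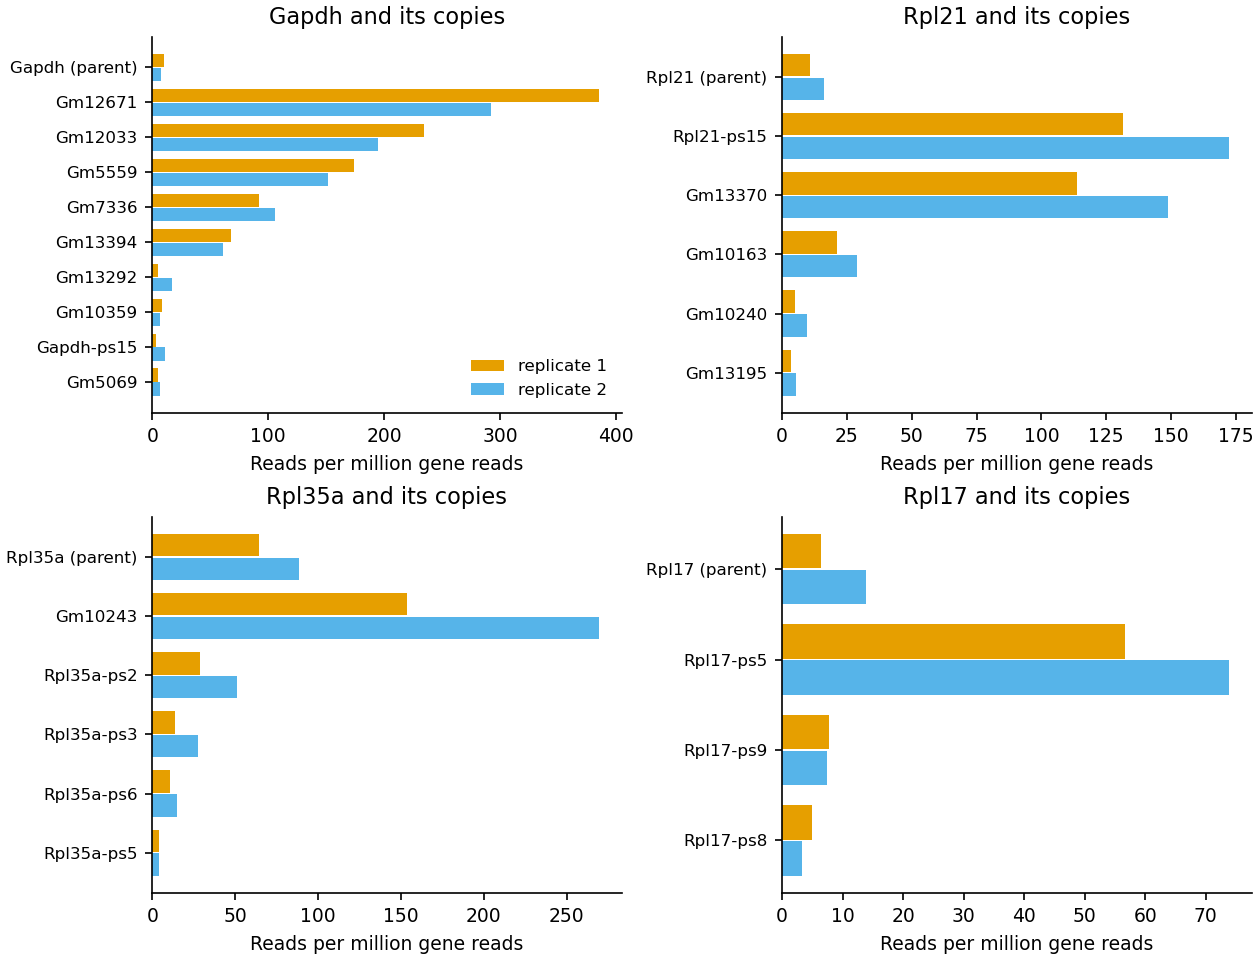
Horizontal bars give CPM (x axis) for Gapdh, Rpl21, Rpl35a and Rpl17 and for each of their copies (y axis), with orange bars for replicate 1 and blue bars for replicate 2. Gapdh, with 14 and 7 reads, lies far below Gm12671, with 545 and 273, and in each of the 4 families the copy with the most reads exceeds its parent in both libraries.

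Summed over the members of each parent, reads exceeded those of the parent for 16 of 141 parents. Taken singly, 20 members had more reads than their parent over both libraries, 15 of them in each library. Gm12191 had 120 and 87 reads against 39 and 35 for Rpl30, and Gm7389 had 87 and 78 against 22 and 46 for Xpot, the tRNA exportin. The median member had 16.5% as many reads as its parent, and 77 members had under 10%. The files hold counts per transcript model and no read sequences, so how the reads of a parent and its copies were divided by the alignment was not tested. Every count of a member or parent with a near-identical copy is uncertain in that respect.

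**Figure D2:**
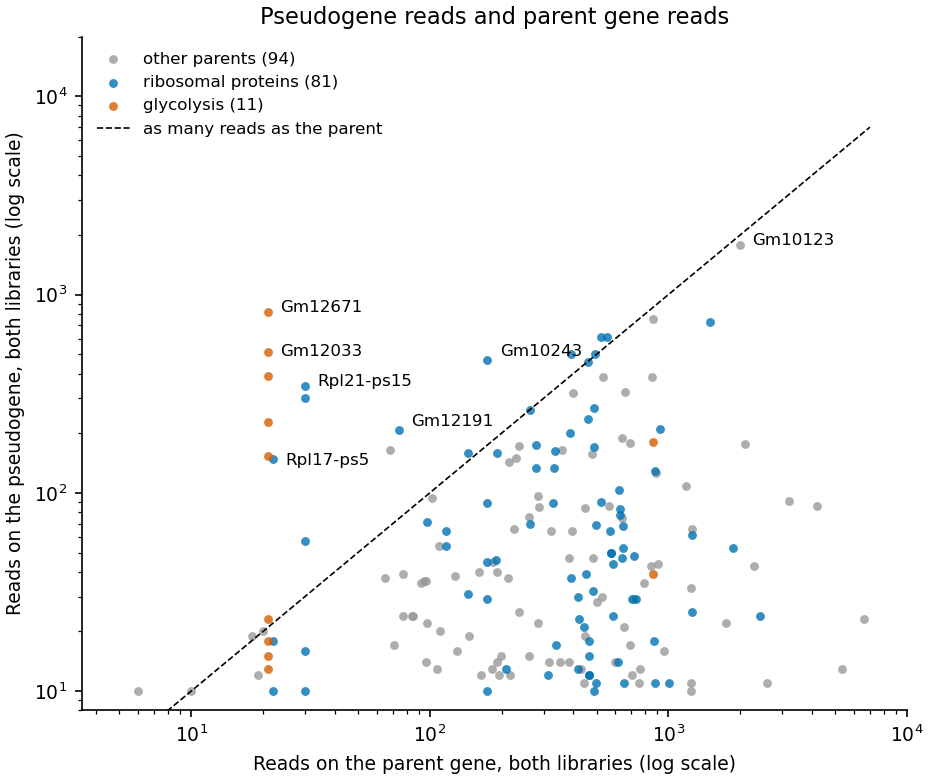
Each point is 1 of the 186 members with a parent, with reads on the parent gene (x axis, log scale) against reads on the pseudogene (y axis, log scale), summed over both libraries. The 20 points above the dashed line are members with more reads than their parent, and the column of orange points at 21 parent reads holds the Gapdh copies.

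Members were close to their parents in sequence, a property the selection did not use. Median identity over the aligned bases was 99.7%, 148 members had 99% or more, and these held 92.5% of member reads. For 49 members, the annotated transcript compared matched the parent transcript over its whole length without a mismatch or gap. These members held 41.7% of member reads. A single mismatch was found in another 37. Exonic bases of a member outside the transcript compared do not enter these counts. Median identity was 97.9% for the 454 processed pseudogenes with 1 to 9 reads and 87.8% for the 9594 with no read. The parents had median reads of 391, 260.5 and 174 in the same 3 groups, so parents of members were also more highly read.

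The share of annotated processed pseudogenes with 10 or more reads was larger at higher identity. Among those aligned over at least 90% of their length, it was 3 of 1896 at 90 to 95% identity, 17 of 428 (3.97%) at 98 to 99%, 30 of 227 (13.2%) at 99 to 99.5%, 68 of 187 (36.4%) from 99.5% to under 100%, and 50 of 126 (39.7%) at 100%. With only those whose parent had 100 or more reads, the last 2 shares were 47.2% and 47.7%. Of the 126 identical over the aligned part, 75 had at least 1 read. These shares describe loci of 1 genome and have no replicate error.

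**Figure D3:**
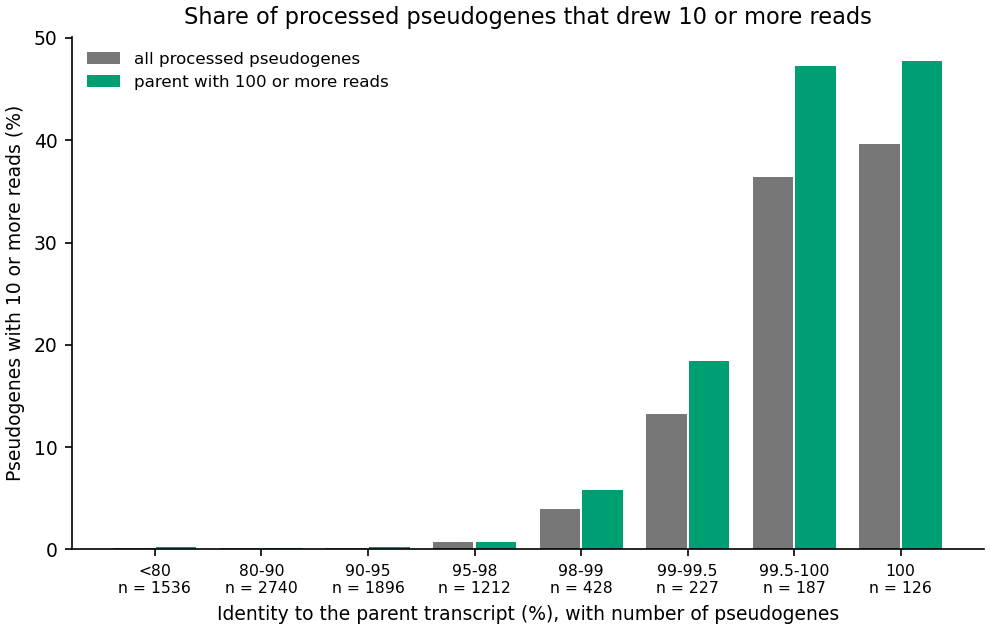
Bars give the percentage of annotated processed pseudogenes with 10 or more reads (y axis) by identity to the parent transcript (x axis, percent, with the number of pseudogenes in each bin). Grey bars are all processed pseudogenes aligned over at least 90% of their length and green bars those whose parent had 100 or more reads. Both stay under 1% up to 98% identity and reach 39.7% and 47.7% at 100%.

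Only 11 members were under 95% identical to their parent, with 345 reads in all. Rps4l, 79.8% identical to Rps4x, which encodes a protein of the small ribosomal subunit, had 19 and 25 reads, all on its annotated model. Its longest reading frame was 99.6% as long as the Rps4x coding sequence. Gm15725, 91.8% identical to Actb (cytoplasmic beta-actin), had 26 and 17 reads, and 2810025M15Rik, 78.8% identical to Rpl37a over 86.5% of its length, had 30 and 20. In the annotated sequence, 106 of 186 members held an open reading frame of at least 95% of the parent's coding length, and 65 held less than 50%. Only frames that ended in a stop codon within the annotated sequence were counted, so a low value need not mean a broken frame. Of the 25 most-read members, 20 held a frame of the full parental length. The other 5, among them Gm10123, Gm10698, Rpl3-ps1 and Gm7536, had less than 25% of it by this measure. Of these, Gm10123, Gm10698 and Gm7536 matched their parents over their whole length without a mismatch or gap.

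Members were short and mostly of 1 exon. The median exonic length was 580 bases (range 171 to 6092), and 180 of 187 were annotated as a single block. They lay on both strands, 90 on plus with 10268 reads and 97 on minus with 9809. Chromosome 6 held 16 members, chromosomes 2 and 5 held 15 each and the X chromosome 14. The Y chromosome held 1, Gapdh-ps15, with 5 reads in replicate 1 and 10 in replicate 2, although the mice are labelled female. Of the 183 protein-coding Y genes none had a read in either library, including Ddx3y, Uty, Kdm5d and Eif2s3y. The only other Y gene with reads was the unprocessed pseudogene Gm20775, with 3 and 2. Gapdh-ps15 differed from Gapdh at 5 of its aligned bases, an identity of 99.5%.

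Nearly all member reads lay on annotated transcript models. The share was 98.2% in replicate 1 (95% exact Clopper-Pearson interval 98.0 to 98.5%) and 99.0% in replicate 2 (98.7 to 99.2%). For all other annotated genes it was 77.0% and 73.0%, with 12.2% and 13.1% on incomplete splice matches, which are models that contain only part of an annotated chain of junctions. The 180 members annotated as a single block have no annotated junctions of their own, on which that class by this definition rests. Members and other genes are therefore not compared like for like, and no comparison group of single-exon genes was used. Models called genomic, which overlap the gene without matching its junctions, held 0.809% and 0.882% of member reads. In 157 members every read was on an annotated model.

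The exceptions were 8 members with under 50% of their reads on annotated models. Gm14592 on the X chromosome (chrX:53623279-53623838) had 93 reads in replicate 1, of which 82 lay on incomplete splice matches and 1 on the annotated model, and 1 read in replicate 2. Although Gm14592 is annotated as a single block, it held 82 of the 90 member reads on incomplete splice matches in replicate 1. Those models match no annotated junction of Gm14592 itself, and why they were so classed was not tested. Gm12346, a copy of the chaperone gene Hsp90aa1, had 13 of 14 and 24 of 29 reads on genomic models. Gm13292 had 6 of 7 and 6 of 16 on genomic models. AC121957.1, Gm4118, Gm10509, Gm8290 and Gm13195 had none of their 10 to 31 reads on an annotated model.

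By position, 116 members overlapped no other annotated gene and held 13277 reads. Another 27 lay in introns of a gene on the opposite strand (3308 reads), and 22 in introns of a gene on their own strand (2311 reads). Exons of a gene on the opposite strand overlapped 13 members (674 reads), and exons of a gene on the same strand overlapped 9 (507 reads). On the same-strand intron side, Gm10243 had 469 reads over both libraries while its host Zfp862-ps had 0 and 2. Rps19-ps6 had 457 while its host Tecpr2 had 10 and 7. Gm13370 had 300 against 139 and 66 for its host Pnpla7, and Gm12191 had 207 against 48 and 21 for Cnot6. In these 4 cases the copy had more reads than its host in each library.

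Of the 9 members with a same-strand exon overlap, 4 overlapped an annotated miRNA gene. Among them, Rpl19-ps11 (102 and 107 reads) overlapped Gm27288, which had no read. Gm10774 (45 and 41 reads) lay with all of its 204 bases in exons of Usp50, a deubiquitinase family gene, which had 91 and 103. Gm15725 lay with all of its 1090 bases in exons of Lrrc58, which had 37 and 44 reads. Gm7666, a copy of the prohibitin gene Phb with 41 and 25 reads, shared 231 of its 819 bases with exons of Fyb, which had 1 and 1. The count of 9 became 31 when gene spans were compared and 3 when the overlap had to cover at least 50% of the member's exons.

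Models not given to a member overlapped its exons on the same strand in 36 members, with 528 reads in replicate 1 and 493 in replicate 2. In 15 of these there were 10 or more such reads. Usp50 models with 91 and 101 reads overlapped Gm10774, each over less than 50% of its exons, and Lrrc58 models with 35 and 30 reads overlapped Gm15725. Models in no annotated gene, which the files call intergenic, lay over Gm10231 (77 and 83 reads, against 18 and 7 for the member itself), Gm10698 (23 and 27), Eif4a-ps4 (30 and 19) and Gm13502 (32 and 0). Over the annotated exons of Gm6969 they had 0 and 38 reads, while intergenic models that overlapped the member's own models had 73 and 38. When the overlap had to cover 50% of the member's exons, 4 of the 36 remained, and Gm10774, Gm10698 and Eif4a-ps4 were not among them. On the opposite strand 40 members were overlapped, with 180 and 282 reads. The 3 largest such counts were 29 and 61 over Gm8783, 41 and 55 over Ptges3-ps, and 27 and 58 over Gm15801, which had 79 and 99 reads of its own. Whether the counting used strand is not given in the sources used here.

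The 24 members annotated as transcribed had 2056 reads in all. They were 8.11% of the 296 annotated transcribed processed pseudogenes, while the 163 others were 1.64% of 9941. Their median identity to the parent was 99.5%, against 99.7% for the others, and 7 had more than 1 exon block. The 10 with the most reads were Rpl37rt, Gm15500, Gm15501, Gm10175, Ppp1ccb, Gpx4-ps2, Gm5641, Gm10275, Gm7666 and Gm10177. Gm10175 copies Atp5g2, which encodes subunit c of ATP synthase, and had 80 and 92 reads against 112 and 125 for Atp5g2. Ppp1ccb copies Ppp1cc, a catalytic subunit of protein phosphatase 1, and had 104 and 61. Gpx4-ps2 copies Gpx4, a lipid peroxide reductase, and had 48 and 60 reads against 672 and 510 for Gpx4. The transcripts compared for Gm5641 (Hnrnpa3, 48 and 28 reads), Gm10275 (Rpl12, 35 and 36) and Gm10177 (Sec61g, 35 and 29) were each identical to the parent. In the same order, they covered 1080 of 1488, 495 of 635 and 207 of 444 exonic bases of the member.

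The split of each member's reads between the libraries, which the selection did not use, was compared with a two-sided exact binomial test. The expected split came from total gene reads scaled by TMM factors, and p-values were adjusted over all 11068 annotated genes with 10 or more reads. The test compares these 2 libraries and covers counting error only. Past an adjusted p of 0.05 there were 30 of 187 members (16.0%), beside 12.4% of all genes tested. Replicate 2 was the higher library for 24 (12.8% of members, beside 6.2% of all genes) and replicate 1 for 6 (3.21%, beside 6.21%). The median log2 ratio of replicate 2 over replicate 1, with 0.5 added to each count, was 0.35 for members, 0.0046 for all genes tested and 0.21 for the 140 parents tested. Of these parents, 33 were higher in replicate 2 and 12 in replicate 1. Scaled by spike-in reads, 5 members passed the test towards replicate 2, beside 2.36% of all genes tested, and 14 towards replicate 1, beside 20% of all genes. That scaling moved the median of all genes tested to -0.32 and that of the members to 0.026. edgeR's exact test, which adds a spread of 21.5% (CV) estimated from these same libraries as 1 group, left 3 members past the threshold, beside 0.244% of all genes: Gm14592, Gm15432 and Gm8186.

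Among members higher in replicate 2, Gm15500 had 91 and 144 reads. Its scaled ratio was 2.34 (95% interval 1.79 to 3.08, adjusted p 9.0e-09 by the exact binomial test). Over 894 of its 1019 exonic bases it was identical to its parent Rpl5. Rpl5 was also higher in replicate 2 (208 and 254 reads, log2 ratio 0.85). Gm8186 copies Snrpg, which encodes a core protein of spliceosomal snRNPs, and had 7 and 40 reads, a ratio of 8.45 (3.75 to 22.4, adjusted p 2.1e-08 by the exact test). Snrpg had 226 and 257 reads with a log2 ratio of 0.75, which lies below that interval. Gm10243 had a ratio of 1.72 (1.43 to 2.07), Gm14303 of 1.49 (1.27 to 1.76), Rps19-ps6 of 1.58 (1.31 to 1.91), Rpl37rt of 1.46 (1.22 to 1.74) and Gm15801, a copy of the phosphatase gene Ptp4a1, of 1.85 (1.37 to 2.52). The reads of these members are given above.

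Gm14592 was the member with the smallest p among those higher in replicate 1, with 93 reads against 1, a ratio of 62.9 (11.0 to 2509, adjusted p 1.4e-17 by the exact binomial test). Its best match, the splicing factor gene Sf3a3, was 82.6% identical and had 59 and 43 reads. In replicate 2, 50 reads over the same models were given to Rtl8c, a gene derived from a retrotransposon, and with all same-strand models pooled the locus had 95 and 51 reads (log2 ratio -0.33, adjusted p 0.499 by the same exact test). Gm15432 had 36 reads in replicate 1 and 0 in replicate 2, at least 8.11-fold higher in replicate 1 when the 0 is set to 3 reads. An intergenic model with 17 reads lay over it in replicate 2, and pooled counts of 36 and 17 gave an adjusted p of 0.568 by the exact test. Vcp-rs copies Vcp, an AAA ATPase gene, and had 71 and 20 reads, a ratio of 2.40 (1.44 to 4.16) in favour of replicate 1. These 3 calls were not kept when overlapping models were counted together, a setting added after seeing the data.

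The other 3 higher in replicate 1 were copies of genes for glycolytic enzymes. Gm12671 had 545 and 273 reads, a ratio of 1.35 (1.17 to 1.57) in favour of replicate 1. Pgk1-rs7 copies the phosphoglycerate kinase gene Pgk1 and had 128 and 52 reads, a ratio of 1.66 (1.20 to 2.34). Pgk1 itself had 601 and 263 (log2 ratio -0.63) and was also higher in replicate 1. Gm4735 had 129 and 48 reads, a ratio of 1.82 (1.29 to 2.59), and its best match, the enolase gene Eno1b, had 1450 and 648 (log2 ratio -0.60). Eno1b is not on the list of glycolytic symbols used here, so Gm4735 counts under other parents. The next match, Eno1, is on that list and scored 99.6% as high, so this placement rests on a near tie. The 2 skeletal muscle markers had reads in replicate 1 only, and the fat markers were higher there, and the part of either in these results was not tested.

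**Figure D4:**
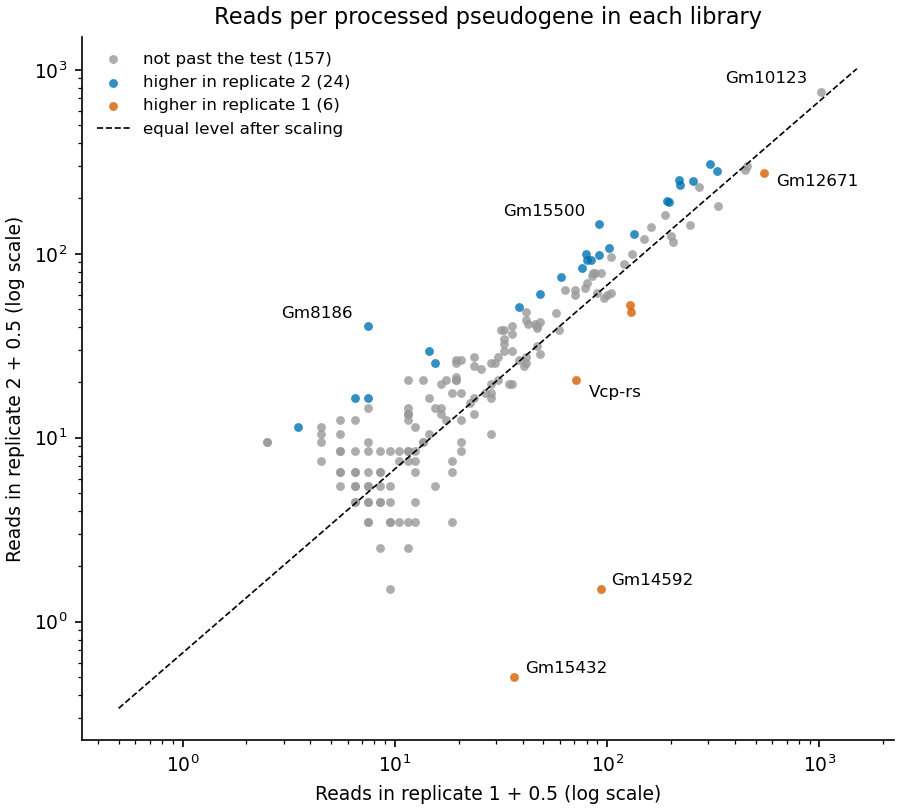
Each point is 1 of the 187 members, with its reads plus 0.5 in replicate 1 (x axis, log scale) and in replicate 2 (y axis, log scale). The dashed line marks equal levels after scaling, the 24 blue points passed the test towards replicate 2 and the 6 orange points towards replicate 1, and Gm14592 and Gm15432 lie farthest from the line.

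By class of parent, 13 of 81 ribosomal members were higher in replicate 2 and 0 in replicate 1. The shares of all genes tested were 6.2% and 6.21%. Of all tested genes under 500 exonic bases, 19.5% were higher in replicate 2, and of those of 500 to under 1000, 12.3%. The ribosomal members had a median log2 ratio of 0.44, beside 0.40 for their parents. A log2 ratio above 0 was found in 70 of these 81 and in 131 of all 187 members, beside 50.5% of all genes tested. The 11 glycolytic members had a median of -0.18, beside -0.51 for their parents Gapdh and Pgk1, with Gm13292 past the test towards replicate 2 and 2 others towards replicate 1. The 9 copies of respiratory chain and ATP synthase genes had a median of 0.32, with 2 higher in replicate 2. Of 30 members past the test, 27 had a ratio of the same sign as their parent's, and 3 the opposite sign. The parent's ratio lay within the 95% interval of the member's in 158 of 185 cases. The median member had 39 reads, so many of these intervals are wide. This count therefore cannot show how closely copy and parent moved together. Member and parent share libraries and near-identical sequence, so these are not independent counts.

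Shorter members leaned more to replicate 2. The median log2 ratio was 0.43 for the 79 members under 500 exonic bases, 0.34 for the 62 of 500 to under 1000 and 0.041 for the 46 of 1000 or more. All tested genes of the same lengths had medians of 0.44, 0.24 and -0.0041. In the shortest class 12 of 79 members were higher in replicate 2, beside 19.5% of the 149 genes of that length, many of which are these members. The part of transcript length in the difference between libraries was not tested.

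**Figure D5:**
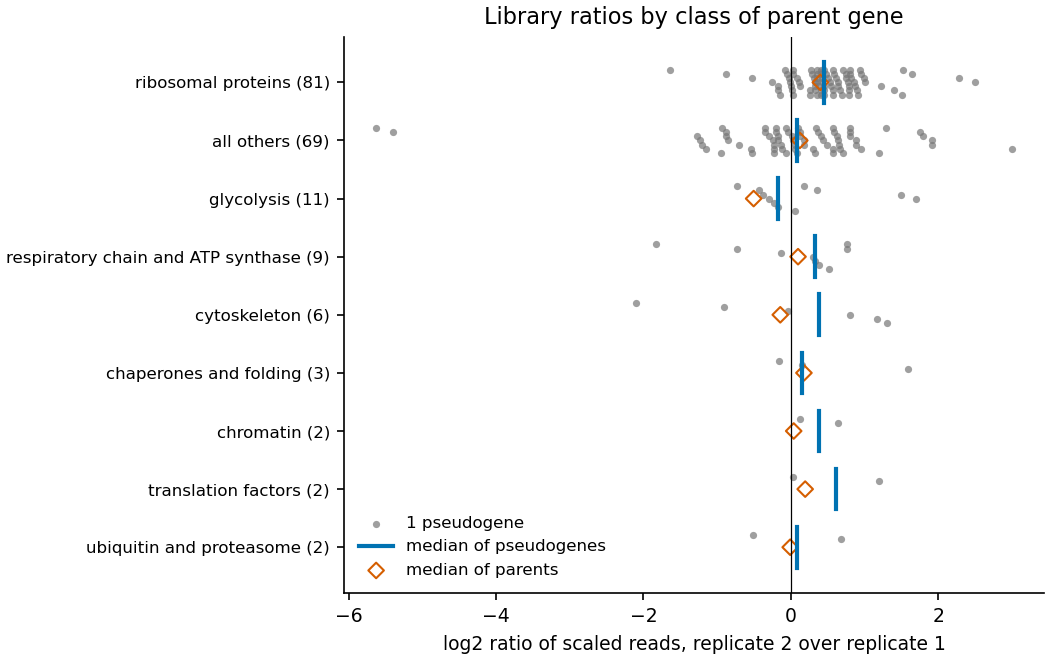
Each grey point is the log2 ratio of scaled reads, replicate 2 over replicate 1 (x axis), of 1 member, grouped by the class of its parent gene (y axis, number of members in brackets, classes with 2 or more). Blue lines are medians of members and orange diamonds medians of their tested parents, at 0.44 and 0.40 for ribosomal proteins and -0.18 and -0.51 for glycolysis.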

How the data were processed

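Counts of long reads per transcript model were deposited for each library on mm10 with GENCODE M21, per the file headers and accompanying notes. The field names are those of TALON, while aligner, program versions and read filters are not given in the sources used here. Positions and sequences came from GENCODE M21, whose exons equalled the deposited ones for all 20883 and 19472 annotated models with reads. Counts were summed per annotated gene. Depth was 1412947 and 933963 gene reads, and 3 reads (what a count of 0 allows) equal 2.12 and 3.21 CPM. Libraries were compared in Python 3 with scipy by a two-sided exact binomial test with TMM factors from edgeR 4.0.16, adjusted by Benjamini-Hochberg at 0.05 over genes with 10 or more reads, tested on simulated data. Parents were found with blastn 2.17.0 (e-value 1e-10, plus strand, spliced protein-coding transcripts outside the member's locus, highest score), and windows were aligned with Biopython. Alternatives were total counts, DESeq2 1.42.0 size factors, spike-in totals, other minimums, model classes, edgeR's exact test, and leaving out a replicate.

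Named genes were the 25 members with the most reads, up to 10 transcribed members, up to 10 past the comparison by smallest p, up to 3 each at 10 and 9 reads, and their parent or overlapping genes; members of families, of position groups and of low identity were named after their values were seen. Members, lists and tests were chosen with earlier results of these data known. Results that turn on some parent or overlapping genes are not reported here.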

Additional observations from a re-analysis of the deposited data

How the results depend on the processing

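The 30 members past the library comparison became 30 with total counts, 30 with DESeq2 size factors, 29 with a minimum of 20 reads, 24 with no minimum, 32 with annotated models only and 28 with overlapping models pooled. Scaling by spike-in totals gave 19, of which 5 favoured replicate 2 and 14 replicate 1. edgeR's exact test gave 3, of which 1 favoured replicate 2 and 2 replicate 1, and 13 at an unadjusted p under 0.05. Pooling overlapping models left 3 that favoured replicate 1. No called member changed sign in the settings where it was tested; 26 of the 30 were tested in all, while Gm14592, Gm12346, Gm13292 and Rpl9-ps4 fell under the minimum in 1 or 2 of them. The 9 members with a same-strand exon overlap became 31 by gene spans and 3 by an overlap of 50% of exon length, and the 36 with other same-strand models over their exons became 4 at that overlap. Leaving out a replicate gave 126 to 139 members, a share of gene reads of 0.787 to 0.959% and a share on annotated models of 98.2 to 99.0%; without the Gapdh copies the share of gene reads was 0.782%. No paired analysis was possible because there is 1 group. With 2 libraries, differences between animals and differences between library preparations cannot be told apart, and members near 10 reads carry wide counting error.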
